A study of Mus musculus with 9 samples.

Results

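The 46 genes described here encode the proteins that copy DNA and 5 enzymes or enzyme subunits that make or protect its nucleotides. They were taken by gene symbol of the array's probe annotation, and each was read from 1 probe set, the single-symbol one of highest mean over all 9 arrays. All 46 were found among 18193 genes measured this way. The cells were 3T3-L1, fibroblast-like mouse cells that hormones turn into fat-storing adipocytes. The 3 groups had 3 arrays each and carried no engineered allele. Preadipocytes were the untreated line and received neither siRNA nor electroporation. Control siRNA adipocytes had been induced after confluence with insulin at 10 µg/ml, 0.5 mM isobutylmethylxanthine and 1 µM dexamethasone, and were electroporated with a non-targeting siRNA 14 days after induction. PPAR gamma siRNA adipocytes were handled the same way with siRNA against Pparg, which encodes the nuclear receptor that drives fat cell formation. The labels give 2 or 3 nmol of siRNA without assigning the amounts to arrays, and neither the density of the preadipocytes at harvest nor the time between electroporation and harvest is stated in the labels used. The series calls the 3 arrays of a group technical replicates, so every p given here measures only the spread between these arrays.

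DNA replication starts when the origin recognition complex, with Cdc6 and Cdt1, loads the ring-shaped MCM2-7 helicase onto DNA in G1 phase. At the start of S phase Cdc45 and the GINS complex join the helicase and turn it on, primase and polymerase alpha lay down primers, and polymerases delta and epsilon extend them on the sliding clamp PCNA. Many of these genes are transcribed by E2F factors, which the retinoblastoma family holds in check in resting cells. In 3T3-L1 cultures, confluent cells re-enter the cycle shortly after hormonal induction and then leave it as they become fat cells.

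Most of the set was lower in adipocytes than in preadipocytes. Of the 46 genes, 35 fell and 4 rose in control siRNA adipocytes against preadipocytes, and 7 were not called (limma over all arrays, Benjamini-Hochberg adjusted p under 0.05). That comparison is called differentiation below. Its groups also differ in electroporation and siRNA, and may differ in density, and these cannot be told apart from differentiation here. The same holds for PPAR gamma siRNA adipocytes against preadipocytes. Among all genes 24.7% fell and 27.1% rose. The median log2 change of the 46 was -1.05, from -3.28 for Rrm2 to 0.92 for Orc5, beside 0.09 over all genes. A fall of at least 2-fold was called for 24 of them and for 10.6% of all genes. In 36 genes every control siRNA array lay below every preadipocyte array, and in 4 every one lay above, beside 27.5% and 34.0% of all genes.

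With PPAR gamma siRNA more of these genes rose than fell. Against control siRNA adipocytes, 20 of the 46 genes rose, 10 fell and 16 were not called, while 19.9% of all genes rose and 16.1% fell. The median log2 change was 0.29, from -0.95 for Rfc1 to 1.38 for Prim1, beside -0.01 over all genes. Only Prim1 and Mcm6 rose at least 2-fold, beside 5.68% of all genes. Arrays of the 2 groups did not overlap for 20 genes in the upward and 11 in the downward direction, against 23.4% and 21.0% of all genes. The share that fell, 10 of 46, is near the share of all genes. Leaving out the control siRNA and PPAR gamma siRNA arrays with the widest gap between 3′ and 5′ Actb probe sets left 6 falls, without Orc2, Gmnn, Mcm10 and Gins4.

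Set against preadipocytes, PPAR gamma siRNA adipocytes still had less of most of these transcripts. In this comparison 36 genes were lower, 2 were higher (Orc3 and Orc5) and 8 were not called, beside 16.9% lower and 19.6% higher among all genes. The median log2 difference was -0.75, from -2.52 for Mcm5 to 0.64 for Orc5, beside 0.07 over all genes. The difference reached 2-fold downward in 14 genes and in 5.01% of all genes. The arrays did not overlap for 38 genes in the downward and 4 in the upward direction, against 21.1% and 28.8% of all genes. Orc3 lost its call when any 1 preadipocyte or PPAR gamma siRNA array was left out. That left 1 higher gene, except without preadipocyte array 1, where Orc2 was called higher as well. The 3 comparisons use each group of arrays more than once, so their values are given side by side and are not independent of each other.

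**Figure D1:**
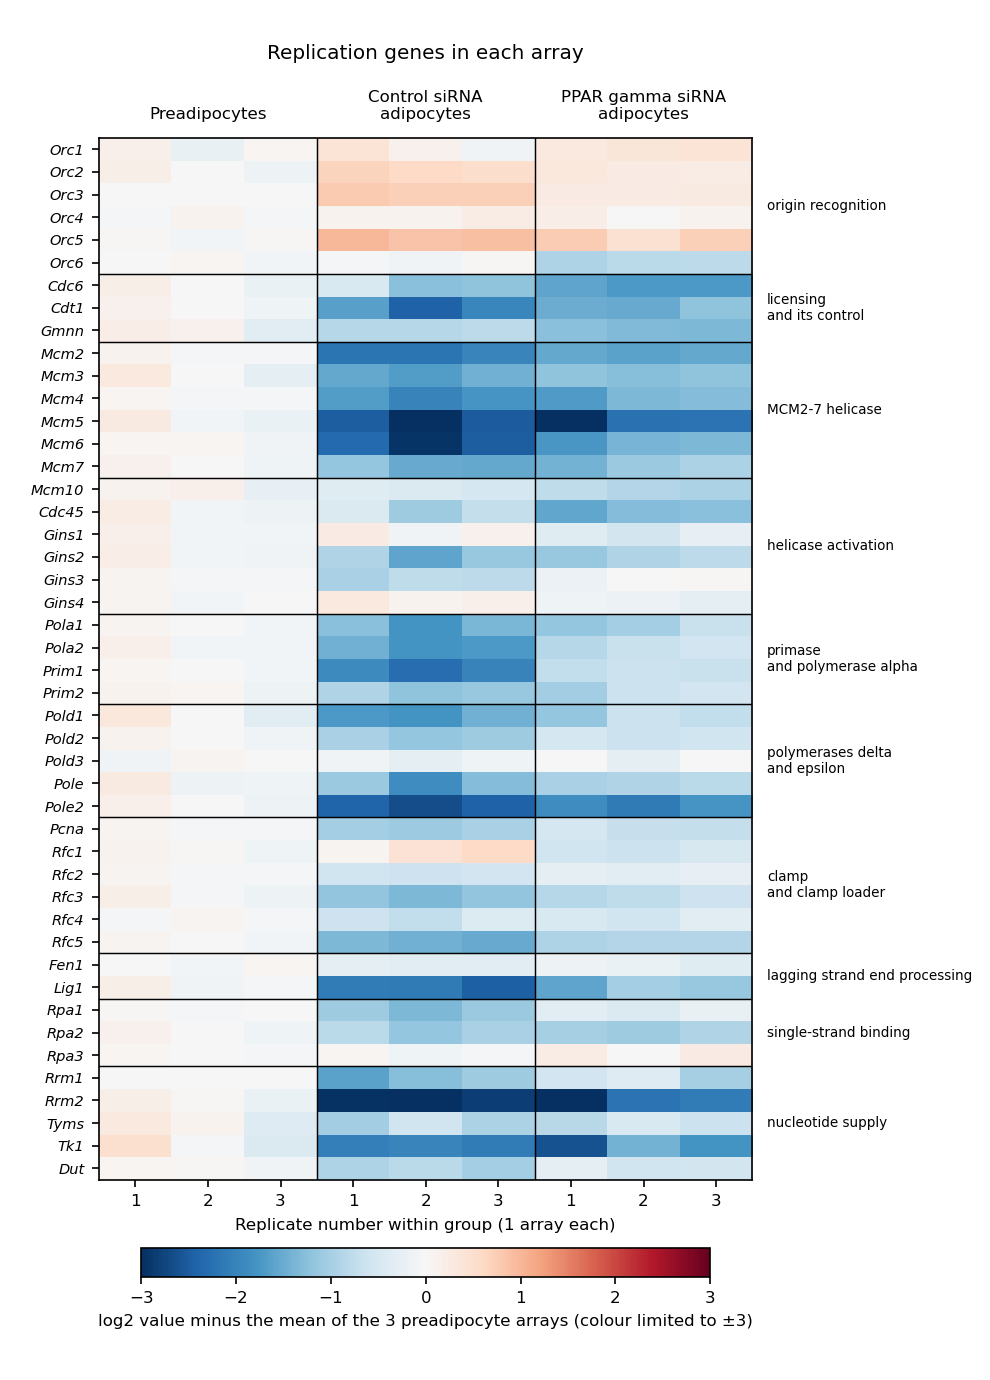
Each row is 1 of the 46 genes, grouped by role, and each column 1 array; colour is the log2 value minus the mean of the 3 preadipocyte arrays, limited to ±3. The control siRNA arrays are blue in most rows, the PPAR gamma siRNA arrays paler blue in many, and Orc2, Orc3, Orc5 and Rfc1 are red under control siRNA.

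The arrays carried their labels' marks. Pparg itself stood at a mean log2 value of 8.22 ± 0.12 (SD, n = 3) in preadipocytes, 12.79 ± 0.12 in control siRNA and 9.59 ± 0.05 in PPAR gamma siRNA adipocytes. All 6 adipocyte markers rose with differentiation and fell with PPAR gamma siRNA. The 6 preadipocyte or fibroblast markers did the reverse, as 6 of 6 fell and 6 of 6 rose. Their summed level (log2 of the summed linear values) was 15.70 to 15.82 in preadipocytes, 13.14 to 13.51 with control siRNA and 14.77 to 15.13 with PPAR gamma siRNA. These markers thus moved in the same direction as most of the called replication genes in both comparisons, and their part in the results was not tested. In RNA from a whole culture, fewer cells of a type and less RNA per cell cannot be told apart. Of 5 macrophage markers, Cd68 was the 1 called with PPAR gamma siRNA, with a rise of 1.197 ± 0.22 (SE), while Ptprc, Itgam and Adgre1 had group means under 4. Cd68 and Adgre1 were also called in differentiation, with rises of 1.35 ± 0.22 and 0.43 ± 0.10. No endothelial marker was called between the siRNAs, and Kdr was higher than in preadipocytes by 0.47 ± 0.15 with control siRNA and by 0.57 ± 0.15 with PPAR gamma siRNA. The summed endothelial level was 6.14 to 6.35, 6.42 to 6.63 and 6.44 to 6.76, and the summed macrophage level was 6.76 to 6.84, 7.16 to 7.23 and 7.41 to 7.98 in the 3 groups in the same order. Of 4 cartilage or bone markers 2 rose with PPAR gamma siRNA, and the summed level was 8.55 to 8.66, 7.07 to 7.34 and 8.51 to 9.06. Of 4 skeletal muscle markers 2 rose and 1 fell in differentiation, with summed levels of 6.70 to 6.87, 8.41 to 8.45 and 7.91 to 7.95. The spike-in BioB stood at 7.38 ± 0.27, 8.60 ± 0.15 and 8.27 ± 0.29, and the part of these differences in the results was not tested. The Actb 3′ minus 5′ difference, a sign of RNA quality, was 0.30 ± 0.06 in preadipocytes, 1.04 ± 0.22 with control siRNA and 0.79 ± 0.40 with PPAR gamma siRNA. With this difference as a covariate, 32 genes fell and 3 rose in differentiation, and 23 rose and 10 fell with PPAR gamma siRNA. Against preadipocytes 31 were lower and 1 higher with the covariate. The differentiation calls lost in that fit were those of Rfc1, Mcm10, Fen1 and Tyms. Of 38 other probe sets of these genes that were not dim, meaning a mean of at least 5 in some group, 35 gave the same call as the probe set used in differentiation, 26 between the siRNAs and 26 against preadipocytes. The opposite call came from 1 of them in differentiation and from 2 against preadipocytes.

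Upstream sequence was looked at because many members moved together. RefSeq (GRCm38.p6) gave 46 promoter windows of 300 bases, from 250 before to 50 after the start, for 38 of the genes. They were searched on both strands for 4 E2F-type words, TTTCCCGC, TTTCGCGC, TTTGCCGC and TTTGGCGC, whose matches on opposite strands can overlap. A word occurred in 15 of the 46 windows (32.6%), each of a different gene, and in 2.27% of all 32851 windows. Among windows of genes on the array the share was 3.20%. The windows compared were not matched for base composition. CCAAT, the word of the NF-Y factor, was in 54.3% of the members' windows and 37.4% of all. Stretches of the 9 members with an E2F-type match before the start are shown 5′ to 3′ on the gene's strand with the matches in capitals, because they include helicase subunits with the widest falls as well as Orc3, which rose. In Mcm5 and in the first match of Mcm6, 2 words on opposite strands share 4 bases.
Mcm5: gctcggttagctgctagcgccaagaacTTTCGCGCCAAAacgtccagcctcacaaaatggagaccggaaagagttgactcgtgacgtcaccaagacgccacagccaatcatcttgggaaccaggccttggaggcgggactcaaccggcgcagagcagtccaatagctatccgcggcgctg
Mcm6: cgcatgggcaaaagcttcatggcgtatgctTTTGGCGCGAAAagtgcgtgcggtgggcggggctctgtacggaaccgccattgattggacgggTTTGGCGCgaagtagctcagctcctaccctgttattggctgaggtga
Mcm7: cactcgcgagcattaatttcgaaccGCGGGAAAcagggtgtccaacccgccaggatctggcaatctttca
Pola1: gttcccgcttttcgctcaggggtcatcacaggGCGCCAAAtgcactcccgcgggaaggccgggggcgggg
Cdc6: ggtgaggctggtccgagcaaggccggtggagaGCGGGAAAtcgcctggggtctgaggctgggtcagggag
Rfc3: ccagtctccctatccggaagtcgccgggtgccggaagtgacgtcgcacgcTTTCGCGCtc
Gins3: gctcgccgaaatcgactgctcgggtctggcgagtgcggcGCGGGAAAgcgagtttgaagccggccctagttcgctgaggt
Orc1: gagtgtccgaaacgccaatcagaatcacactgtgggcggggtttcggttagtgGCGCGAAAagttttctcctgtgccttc
Orc3: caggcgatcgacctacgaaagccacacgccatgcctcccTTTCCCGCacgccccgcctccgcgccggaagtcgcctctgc
The Mcm5 and Mcm6 stretches lie at chr8:75109329-75109508 on the plus strand and chr1:128359706-128359845 on the minus strand, and both end at the base before the start. That of Mcm7 is at chr5:138172004-138172073 on the minus strand, that of Pola1 at chrX:93632256-93632325 on the minus strand and that of Cdc6 at chr11:98907981-98908050 on the plus strand. The Rfc3, Gins3, Orc1 and Orc3 stretches are at chr5:151651209-151651268 on the minus strand, chr8:95633479-95633558 on the plus strand, chr4:108579374-108579453 on the plus strand and chr4:34614943-34615022 on the minus strand and also end beside the start. The 15 genes with a word had a median log2 change of -1.48 in differentiation and 0.48 with PPAR gamma siRNA, and the 23 with a window and no word had medians of -0.92 and 0.20. Of the 15, 12 fell and 1 rose in differentiation, and of the 23, 17 fell and 3 rose. A match describes the letters of these windows and says nothing of binding in these cells.

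Of the 6 origin recognition genes none fell and 3 rose in differentiation, beside 24.7% and 27.1% of all genes. Between the siRNAs 3 fell and none rose, beside 16.1% and 19.9%, and with 6 genes these counts are a description. Some roles and lists had no gene called in a direction. In that direction none of the probe sets used for them reached even an unadjusted p under 0.05 by limma. Other probe sets are not covered by this, and a dim second one for Orc1, described below, fell in differentiation. Orc5, a subunit that binds ATP, measured 8.72, 8.61 and 8.73 in preadipocytes, 9.69, 9.55 and 9.59 with control siRNA and 9.44, 9.13 and 9.41 with PPAR gamma siRNA. All adipocyte arrays lay above all preadipocyte arrays, with a rise of 0.92 ± 0.10 in differentiation (adjusted p = 9.62e-06) and a remaining difference of 0.64 ± 0.10 with PPAR gamma siRNA (adjusted p = 0.000381). The change between the siRNAs was -0.28 ± 0.10 and was not called (adjusted p = 0.056).

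Orc3, a core subunit of the complex, read 8.38, 8.40 and 8.39 in preadipocytes, 9.18, 9.11 and 9.10 with control siRNA and 8.62, 8.62 and 8.65 with PPAR gamma siRNA. The 3 groups did not overlap on this probe set, which rose by 0.74 ± 0.07 in differentiation (adjusted p = 5.63e-06) and fell by 0.50 ± 0.07 with PPAR gamma siRNA (adjusted p = 0.000299). Its 2 other probe sets were not called in differentiation (0.12 ± 0.10 and -0.22 ± 0.10), and the mean of the probe sets rose by 0.21. The remaining excess of 0.24 ± 0.07 over preadipocytes (adjusted p = 0.0278) was lost in 10 of 19 other settings, among them the omission of any 1 preadipocyte or PPAR gamma siRNA array. Another Orc3 probe set gave -0.44 ± 0.10 there (adjusted p = 0.00473), the opposite direction. Orc2, also a core subunit, gave 7.80, 7.62 and 7.47 in preadipocytes, 8.30, 8.22 and 8.17 with control siRNA and 7.95, 7.88 and 7.85 with PPAR gamma siRNA, again without overlap. It rose by 0.60 ± 0.10 (adjusted p = 0.000288) and fell by 0.34 ± 0.10 with PPAR gamma siRNA (adjusted p = 0.0213), a call that was lost in 5 settings, including those without control siRNA array 1 or 2 and without PPAR gamma siRNA array 2 or 3. Of 2 other Orc2 probe sets, 1 fell there as well (-0.52 ± 0.15) and 1 was not called (-0.13 ± 0.11).

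Orc6, the smallest subunit and the one most loosely bound to the others, behaved differently. Its values were 8.74, 8.79 and 8.65 in preadipocytes, 8.69, 8.62 and 8.76 with control siRNA and 7.79, 7.93 and 7.94 with PPAR gamma siRNA. Preadipocyte and control siRNA arrays overlapped, and the PPAR gamma siRNA arrays lay below both. The change was -0.036 ± 0.09 in differentiation (adjusted p = 0.759) and the fall with PPAR gamma siRNA was 0.81 ± 0.09 (adjusted p = 1.78e-05). Orc1, the subunit that recruits Cdc6, and Orc4 were not called in any comparison, though a second, dim Orc1 probe set fell by 1.05 ± 0.12 in differentiation. A second Orc4 probe set fell by 0.29 ± 0.09 between the siRNAs (adjusted p = 0.0346) and was lower than in preadipocytes by 0.38 ± 0.09 (adjusted p = 0.008).

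The 3 genes of licensing and its control all fell in differentiation, beside 24.7% of all genes. Cdt1, which carries the helicase to origins, had 9.15, 9.05 and 8.89 in preadipocytes, 7.40, 6.59 and 7.07 with control siRNA and 7.55, 7.51 and 7.83 with PPAR gamma siRNA. It fell by 2.01 ± 0.17 (adjusted p = 1.47e-06) and rose by 0.61 ± 0.17 with PPAR gamma siRNA (adjusted p = 0.0206), without overlap. That rise was not called in the fit of the 2 groups alone, nor without control siRNA array 2 or PPAR gamma siRNA array 3, and a second Cdt1 probe set was not called either (0.42 ± 0.16, adjusted p = 0.0798). Cdc6, the ATPase that works with Cdt1, was at 6.19, 6.01 and 5.82 in preadipocytes, 5.54, 4.74 and 4.80 with control siRNA and 4.42, 4.29 and 4.27 with PPAR gamma siRNA. Here the PPAR gamma siRNA arrays were the lowest. Cdc6 fell by 0.98 ± 0.18 in differentiation (adjusted p = 0.000929) and by a further 0.70 ± 0.18 with PPAR gamma siRNA (adjusted p = 0.0134). Its PPAR gamma siRNA mean of 4.33 was dim, so the size of the further fall is uncertain. Geminin, the inhibitor of Cdt1 encoded by Gmnn, followed the same order with 7.72, 7.65 and 7.19 in preadipocytes, 6.66, 6.66 and 6.74 with control siRNA and 6.27, 6.20 and 6.18 with PPAR gamma siRNA. It fell by 0.84 ± 0.12 (adjusted p = 0.000153) and by a further 0.47 ± 0.12 with PPAR gamma siRNA (adjusted p = 0.0143). The further fall was lost without the 2 arrays of widest Actb difference.

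All 6 helicase subunits fell in differentiation, by a median of 1.97, beside 24.7% of all genes falling. All 6 stayed lower in PPAR gamma siRNA adipocytes than in preadipocytes, beside 16.9% of all genes. Mcm5 fell most, 6.79-fold, with 9.52, 9.17 and 9.05 in preadipocytes, 6.77, 5.92 and 6.76 with control siRNA and 6.16, 7.004 and 7.02 with PPAR gamma siRNA. It fell by 2.76 ± 0.26 (adjusted p = 3.34e-06), and control and PPAR gamma siRNA arrays overlapped (0.25 ± 0.26, adjusted p = 0.574). Mcm6 had 10.10, 10.08 and 9.92 in preadipocytes, 7.69, 7.10 and 7.57 with control siRNA and 8.29, 8.63 and 8.67 with PPAR gamma siRNA, with 3 separate groups. It fell by 2.58 ± 0.15 (adjusted p = 5.38e-08) and rose by 1.08 ± 0.15 with PPAR gamma siRNA (adjusted p = 0.00019), leaving it 2.83-fold below preadipocytes (adjusted p = 1.55e-05).

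Mcm2, the subunit that also binds histones, measured 10.25, 10.11 and 10.10 in preadipocytes, 7.95, 7.96 and 8.16 with control siRNA and 8.61, 8.54 and 8.61 with PPAR gamma siRNA. It fell by 2.12 ± 0.09 (adjusted p = 2.98e-09) and rose by 0.56 ± 0.09 (adjusted p = 0.000452), and no arrays overlapped. Mcm4 gave 10.13, 10.05 and 10.05 in preadipocytes, 8.39, 8.08 and 8.31 with control siRNA and 8.37, 8.73 and 8.78 with PPAR gamma siRNA, and its siRNA groups overlapped. It fell by 1.81 ± 0.12 (adjusted p = 1.47e-07), and its rise of 0.37 ± 0.12 with PPAR gamma siRNA (adjusted p = 0.0411) was lost in 12 of 19 other settings. Mcm3 read 8.46, 8.17 and 7.87 in preadipocytes, 6.63, 6.49 and 6.72 with control siRNA and 6.96, 6.89 and 6.96 with PPAR gamma siRNA, and every PPAR gamma siRNA array was above every control siRNA array. The fall of 1.55 ± 0.13 was called (adjusted p = 1.28e-06) and the change of 0.33 ± 0.13 between the siRNAs was not (adjusted p = 0.0947), whereas 2 of its 3 other probe sets that were not dim rose there, by 0.82 ± 0.22 (adjusted p = 0.0151) and 0.49 ± 0.16 (adjusted p = 0.0366). Mcm7 had 10.92, 10.78 and 10.66 in preadipocytes, 9.62, 9.28 and 9.24 with control siRNA and 9.38, 9.67 and 9.84 with PPAR gamma siRNA, with overlap between the siRNAs. It fell by 1.41 ± 0.14 (adjusted p = 4.14e-06), and its change with PPAR gamma siRNA was 0.25 ± 0.14 (adjusted p = 0.238), while 1 of its 3 other probe sets rose by 0.35 ± 0.12 (adjusted p = 0.0472). On the probe sets used, 3 of 6 subunits were called higher with PPAR gamma siRNA and none lower, beside 19.9% and 16.1% of all genes.

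**Figure D2:**
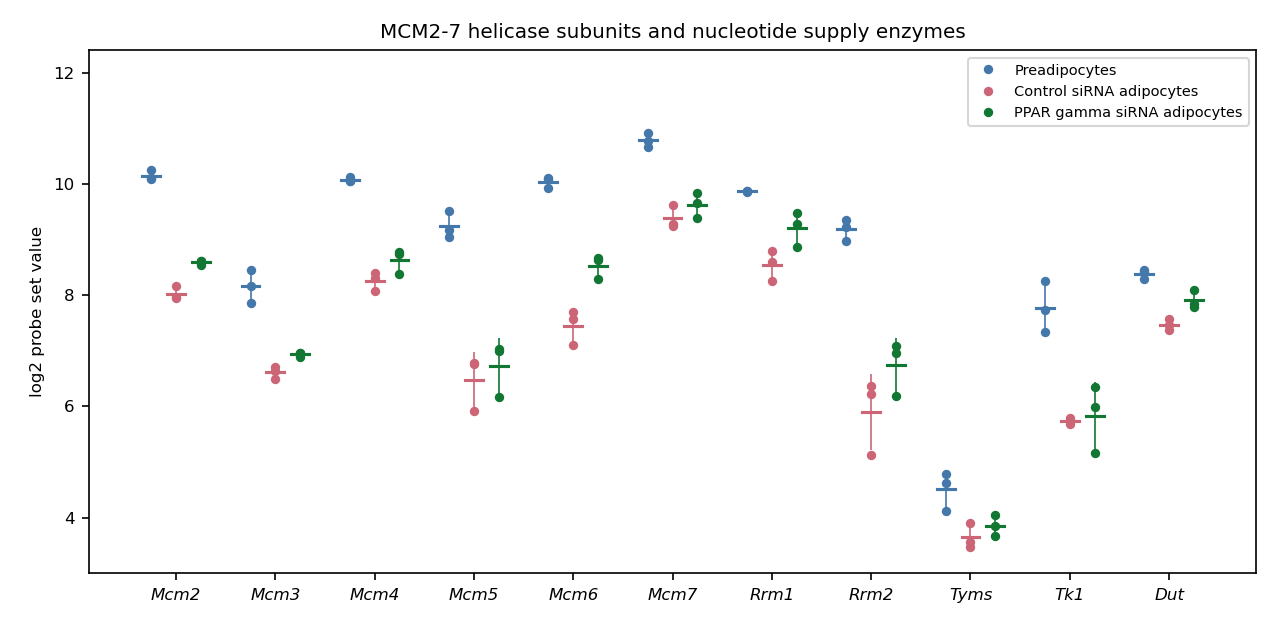
Log2 probe set values (vertical axis) of the 6 MCM2-7 genes and the 5 nucleotide supply genes, 1 point per array, with the mean as a bar and ±1 SD as a line (n = 3). Preadipocyte points lie above both adipocyte groups for every gene plotted; levels of different genes come from different probe sets and are not comparable.

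Of 6 factors that activate the helicase, 4 fell and 1 rose with PPAR gamma siRNA, beside 16.1% and 19.9% of all genes. With 6 genes these counts are a description, and some of the falls depended on the setting. Mcm10, which helps assemble the active helicase, had 6.54, 6.58 and 6.19 in preadipocytes, 6.07, 6.004 and 5.91 with control siRNA and 5.68, 5.56 and 5.48 with PPAR gamma siRNA. It fell by 0.44 ± 0.11 (adjusted p = 0.00758) and by a further 0.42 ± 0.11 (adjusted p = 0.015), the latter call lost without control siRNA array 1 or PPAR gamma siRNA array 3. The mean of its probe sets, 2 of them dim, changed by 0.041 ± 0.09 in differentiation, and a second quantile normalisation also ended that call. Cdc45, a subunit of the active helicase, gave 6.85, 6.54 and 6.45 in preadipocytes, 6.19, 5.55 and 5.90 with control siRNA and 5.05, 5.31 and 5.37 with PPAR gamma siRNA. It fell by 0.73 ± 0.16 (adjusted p = 0.00268) and by 0.64 ± 0.16 with PPAR gamma siRNA (adjusted p = 0.0104). A second Cdc45 probe set rose by 0.31 ± 0.10 in differentiation and was not called between the siRNAs, and with both averaged neither fall was called. With PPAR gamma siRNA this second probe set was above preadipocytes by 0.41 ± 0.10 (adjusted p = 0.00656). The probe set used was below them by 1.37 ± 0.16.

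The 4 GINS subunits form 1 tetramer, but their transcripts did not change alike. Gins2 had 7.92, 7.64 and 7.62 in preadipocytes, 6.82, 6.13 and 6.59 with control siRNA and 6.58, 6.82 and 6.94 with PPAR gamma siRNA, and fell by 1.21 ± 0.17 in differentiation (adjusted p = 7.55e-05) with overlap between the siRNAs (0.27 ± 0.17, adjusted p = 0.298). Gins1 read 6.54, 6.32 and 6.32 in preadipocytes, 6.64, 6.28 and 6.53 with control siRNA and 6.03, 5.84 and 6.14 with PPAR gamma siRNA, and Gins4 9.12, 8.95 and 9.06 in preadipocytes, 9.34, 9.15 and 9.21 with control siRNA and 8.91, 8.88 and 8.76 with PPAR gamma siRNA. Neither was called in differentiation, and PPAR gamma siRNA arrays lay below all others in both. Gins1 fell by 0.48 ± 0.12 (adjusted p = 0.0092) and Gins4 by 0.39 ± 0.09 (adjusted p = 0.00626) between the siRNAs, the Gins4 call being lost without the 2 arrays of widest Actb difference. Gins3 went the other way, with a fall of 0.84 ± 0.10 in differentiation (adjusted p = 1.52e-05) and a rise of 0.80 ± 0.10 with PPAR gamma siRNA (adjusted p = 4.66e-05). Its difference from preadipocytes was then -0.041 ± 0.10 (adjusted p = 0.795).

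Primase and polymerase alpha, which make the primers, fell in 4 of 4 genes in differentiation, beside 24.7% of all genes. With PPAR gamma siRNA 3 of 4 rose, beside 19.9% of all genes, and with 4 genes these counts are a description. Prim1, the catalytic primase subunit, had the largest rise of the 46 genes between the siRNAs, 2.60-fold. It measured 8.52, 8.47 and 8.36 in preadipocytes, 6.54, 6.17 and 6.45 with control siRNA and 7.72, 7.79 and 7.79 with PPAR gamma siRNA, and the 3 groups did not overlap. The fall was 2.06 ± 0.10 (adjusted p = 1.16e-08), the rise 1.38 ± 0.10 (adjusted p = 1.04e-06) and the remaining difference from preadipocytes -0.68 ± 0.10 (adjusted p = 0.000308). The polymerase alpha subunits Pola2 and Pola1 fell by 1.65 ± 0.12 and 1.48 ± 0.15 and rose by 0.96 ± 0.12 (adjusted p = 5.64e-05) and 0.53 ± 0.15 (adjusted p = 0.0198). The Pola1 rise was lost without control siRNA array 2 or PPAR gamma siRNA array 3. Prim2, the large primase subunit, fell by 1.09 ± 0.13 and was not called between the siRNAs (0.34 ± 0.13, adjusted p = 0.0852).

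Of 5 subunits of polymerases delta and epsilon, 4 fell in differentiation, beside 24.7% of all genes. The same number rose with PPAR gamma siRNA, beside 19.9% of all genes, and with 5 genes these counts are a description. Pole2, an accessory subunit of polymerase epsilon, had 7.52, 7.39 and 7.24 in preadipocytes, 4.99, 4.73 and 4.96 with control siRNA and 5.51, 5.27 and 5.62 with PPAR gamma siRNA. It fell by 2.49 ± 0.12 (adjusted p = 7.86e-09) and rose by 0.57 ± 0.12 (adjusted p = 0.00301) without overlap, and its control siRNA mean was under 5, in the dim range of the array. The catalytic subunits Pold1 and Pole fell by 1.65 ± 0.18 and 1.43 ± 0.18 and rose by 0.80 ± 0.18 (adjusted p = 0.00449) and 0.54 ± 0.18 (adjusted p = 0.0407), the latter lost in 8 of 19 other settings. Pold2, which binds the catalytic subunit of polymerase delta, fell by 1.07 ± 0.09 and rose by 0.48 ± 0.09 (adjusted p = 0.00138). Pold3, another subunit of polymerase delta, was not called in any comparison and changed by -0.18 ± 0.10 in differentiation and 0.084 ± 0.10 between the siRNAs.

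The sliding clamp and most of its loader fell, and the loader's large subunit did not. Pcna, the clamp, fell by 1.02 ± 0.09 (adjusted p = 1.08e-06) and rose by 0.38 ± 0.09 with PPAR gamma siRNA (adjusted p = 0.00498). Rfc5, a small loader subunit, measured 8.25, 8.16 and 8.07 in preadipocytes, 6.81, 6.72 and 6.66 with control siRNA and 7.24, 7.29 and 7.29 with PPAR gamma siRNA in 3 separate groups. It fell by 1.43 ± 0.08 (adjusted p = 4.78e-08) and rose by 0.54 ± 0.08 (adjusted p = 0.000378). The small subunits Rfc2, Rfc3 and Rfc4 fell by 0.60 ± 0.08, 1.23 ± 0.10 and 0.60 ± 0.10. Between the siRNAs Rfc2 and Rfc3 rose by 0.32 ± 0.08 and 0.48 ± 0.10, and Rfc4 changed by 0.13 ± 0.10 without a call (adjusted p = 0.445). The Rfc2 rise was lost without the 2 arrays of widest Actb difference.

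Rfc1, the large subunit, ran opposite to the small ones, with 9.08, 9.01 and 8.84 in preadipocytes, 9.07, 9.42 and 9.59 with control siRNA and 8.39, 8.34 and 8.51 with PPAR gamma siRNA. Its PPAR gamma siRNA arrays were the lowest, and 1 control siRNA array fell within the preadipocyte range. It rose by 0.38 ± 0.13 in differentiation (adjusted p = 0.0312), a call lost without preadipocyte array 2 or 3 or control siRNA array 2 or 3, and fell by 0.95 ± 0.13 with PPAR gamma siRNA (adjusted p = 0.000127). Its 2 other probe sets rose by 1.25 ± 0.09 and 1.14 ± 0.17 and fell by 1.30 ± 0.09 and 1.29 ± 0.17. Against preadipocytes they were not called (-0.045 ± 0.09 and -0.15 ± 0.17), whereas the probe set used was lower by 0.57 ± 0.13 (adjusted p = 0.00511).

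For the lagging strand, Lig1, the ligase that joins its fragments, had 8.92, 8.64 and 8.68 in preadipocytes, 6.65, 6.63 and 6.31 with control siRNA and 7.17, 7.73 and 7.62 with PPAR gamma siRNA. It fell by 2.21 ± 0.15 (adjusted p = 1.95e-07) and rose by 0.97 ± 0.15 with PPAR gamma siRNA (adjusted p = 0.000397), without overlap. Fen1, the nuclease that trims the fragments, fell by 0.31 ± 0.09 (adjusted p = 0.0118) on the probe set used and was not called between the siRNAs (0.064 ± 0.09, adjusted p = 0.668). A second Fen1 probe set fell by 1.69 ± 0.13 and rose by 0.47 ± 0.13 (adjusted p = 0.0212).

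Replication protein A coats single-stranded DNA as 3 subunits. Rpa1, the large one, measured 10.95, 10.85 and 10.91 in preadipocytes, 9.83, 9.55 and 9.79 with control siRNA and 10.56, 10.47 and 10.67 with PPAR gamma siRNA. It fell by 1.18 ± 0.10 (adjusted p = 1.03e-06) and rose by 0.84 ± 0.10 with PPAR gamma siRNA (adjusted p = 3.90e-05), which left it 0.34 ± 0.10 below preadipocytes (adjusted p = 0.0219). That remainder was lost without preadipocyte array 1 or 3 or PPAR gamma siRNA array 1 or 2. Rpa2 fell by 0.98 ± 0.11 (adjusted p = 1.15e-05) and its change between the siRNAs was -0.0024 ± 0.11 (adjusted p = 0.992). Rpa3 was not called in any comparison.

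Every nucleotide supply gene fell in differentiation, beside 24.7% of all genes. With PPAR gamma siRNA 2 of 5 rose, beside 19.9% of all genes, and with 5 genes these counts are a description. Rrm2, the small subunit of ribonucleotide reductase, which makes deoxynucleotides and is best known for its S phase expression, had the widest fall of the set, 9.70-fold. It measured 9.35, 9.23 and 8.97 in preadipocytes, 6.23, 5.12 and 6.37 with control siRNA and 6.19, 6.96 and 7.09 with PPAR gamma siRNA. Both adipocyte groups varied by more than 0.8 between arrays and overlapped. The fall of 3.28 ± 0.31 was called (adjusted p = 2.84e-06) and the change of 0.84 ± 0.31 between the siRNAs was not (adjusted p = 0.0636). The large subunit gene Rrm1 gave 9.87, 9.87 and 9.85 in preadipocytes, 8.26, 8.59 and 8.79 with control siRNA and 9.28, 9.47 and 8.86 with PPAR gamma siRNA, with every PPAR gamma siRNA array above every control siRNA array. It fell by 1.32 ± 0.16 (adjusted p = 2.79e-05) and rose by 0.66 ± 0.16 (adjusted p = 0.00849).

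Tk1, the thymidine salvage kinase, had 8.25, 7.73 and 7.35 in preadipocytes, 5.73, 5.78 and 5.68 with control siRNA and 5.17, 6.36 and 5.98 with PPAR gamma siRNA. The fall of 2.04 ± 0.27 was called (adjusted p = 5.92e-05), and PPAR gamma siRNA arrays fell on both sides of the control siRNA arrays (0.10 ± 0.27, adjusted p = 0.839). Dut, the enzyme that removes dUTP, measured 8.45, 8.42 and 8.28 in preadipocytes, 7.47, 7.57 and 7.37 with control siRNA and 8.10, 7.80 and 7.83 with PPAR gamma siRNA. It fell by 0.92 ± 0.10 (adjusted p = 1.47e-05) and rose by 0.44 ± 0.10 (adjusted p = 0.00685), with 3 separate groups, though a second Dut probe set was not called between the siRNAs (0.24 ± 0.15). Tyms, thymidylate synthase, was dim in all groups with 4.79, 4.62 and 4.12 in preadipocytes, 3.47, 3.90 and 3.56 with control siRNA and 3.67, 4.05 and 3.85 with PPAR gamma siRNA, and fell by 0.86 ± 0.17 (adjusted p = 0.00155). A brighter probe set that the annotation shares between Tyms and the pseudogene Tyms-ps fell by 1.77 ± 0.14 (adjusted p = 5.77e-07) and was not called between the siRNAs (0.23 ± 0.14, adjusted p = 0.284).

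**Figure D3:**
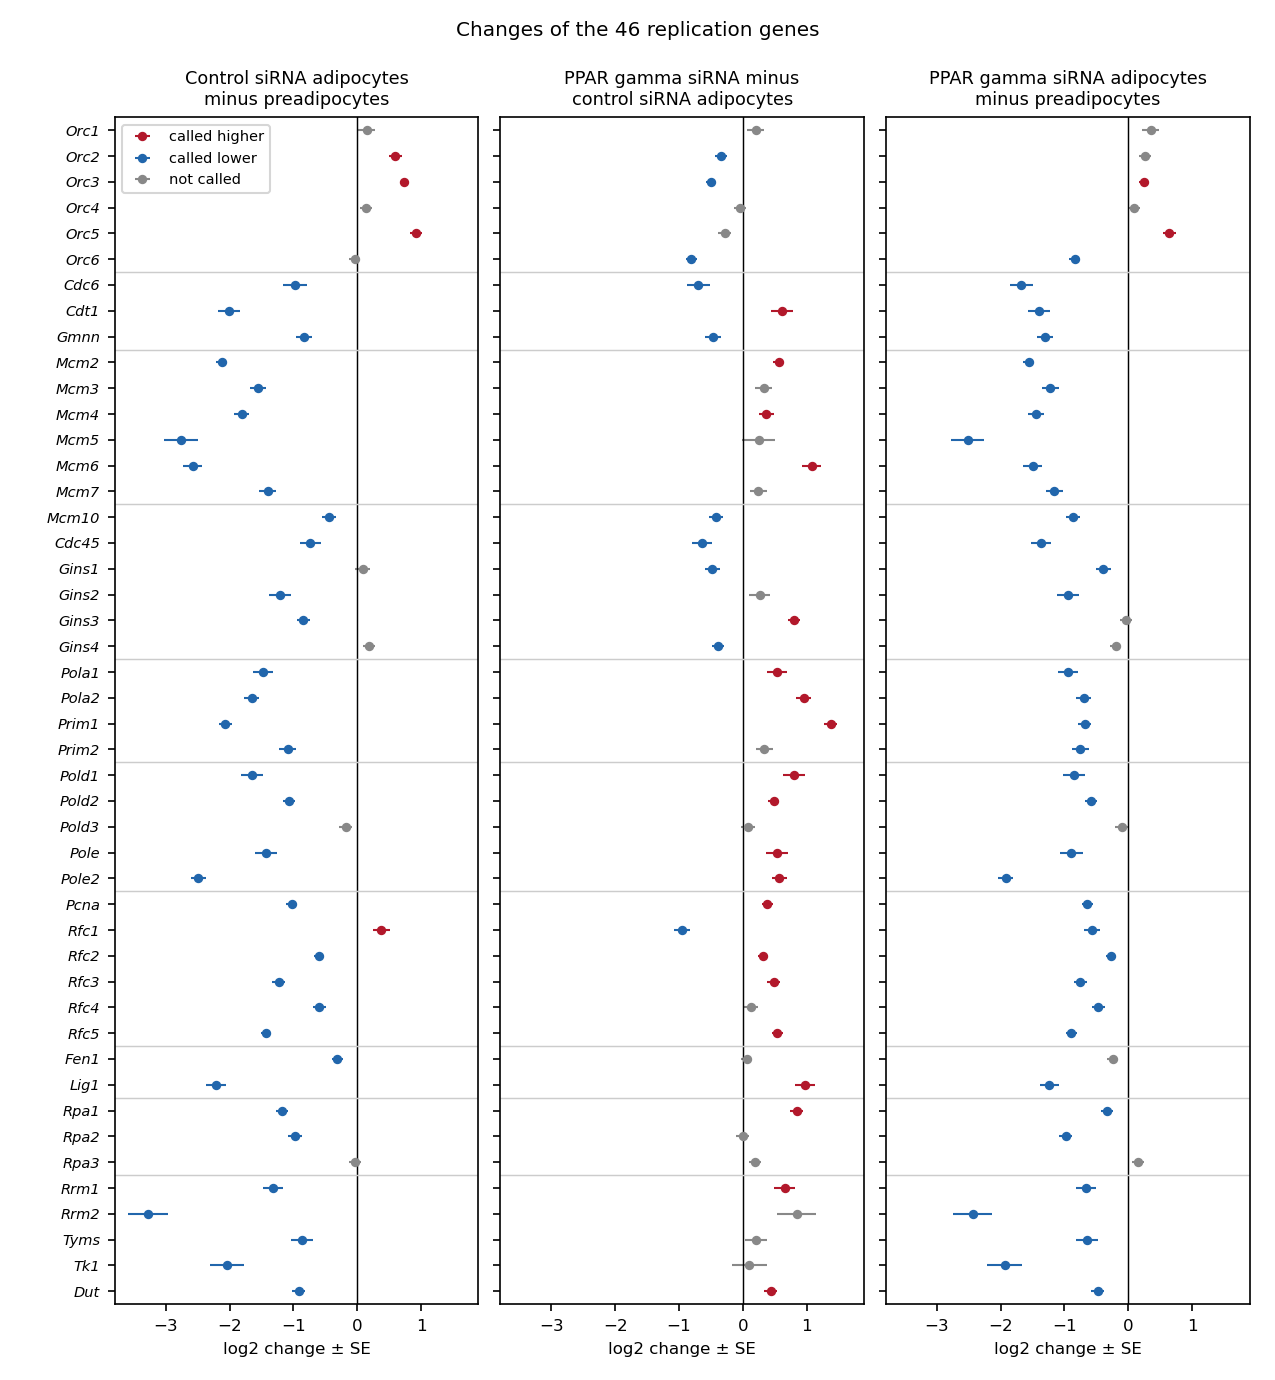
Log2 change ± SE of each of the 46 genes in the 3 comparisons, red where called higher, blue where called lower and grey where not called (adjusted p under 0.05). The left and right panels are mostly blue, and in the middle panel Prim1 is farthest to the right at 1.38 and Rfc1 farthest to the left at -0.95.

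Levels of the 3 groups could be put in order without overlap for part of the set. In 19 of the 46 genes every preadipocyte array was above every PPAR gamma siRNA array, and every one of these above every control siRNA array, an order found in 9.81% of all genes. In 4 genes, Cdc6, Gmnn, Mcm10 and Cdc45, control siRNA lay between preadipocytes and PPAR gamma siRNA on the probe sets used (0.978% of all genes). The second Cdc45 probe set did not follow this order. In Orc2, Orc3 and Orc5, control siRNA was highest and preadipocytes lowest (9.83% of all genes). Gins4 was highest with control siRNA and lowest with PPAR gamma siRNA (1.25% of all genes).

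Arrays of a group also differed from each other across the set. Preadipocyte array 1 was the highest of its group in 37 of 46 genes and array 3 the lowest in 32. Control siRNA array 2 was the lowest in 29, and PPAR gamma siRNA array 3 the highest in 26. The median deviation of the 46 genes from their means over 9 arrays was 0.51 to 0.79 in preadipocytes, -0.56 to -0.39 with control siRNA and -0.27 to -0.08 with PPAR gamma siRNA, so the 3 groups did not overlap in it.

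Genes that work with the set were read from 5 further lists, with 83 of 89 entries measured. Their counts stand beside 24.7% of all genes falling and 27.1% rising in differentiation. The shares of all genes were 16.1% falling and 19.9% rising between the siRNAs. Against preadipocytes they were 16.9% lower and 19.6% higher with PPAR gamma siRNA. Of 17 regulators of initiation and of E2F, 11 fell and 2 rose in differentiation. Dbf4, the activator of the Cdc7 kinase, fell by 2.98 ± 0.18 and cyclin A2, Ccna2, fell by 2.97 ± 0.14, while Rb1, the retinoblastoma protein, rose by 2.61 ± 0.09 and its relative Rbl1 by 0.36 ± 0.13. The Rbl1 rise was lost without any 1 preadipocyte array and without control siRNA array 1 or 3, and came to -0.017 ± 0.17 once the Actb difference was a covariate. With PPAR gamma siRNA 4 of the 17 rose and 3 fell, near the 19.9% and 16.1% of all genes, so nothing is read from the list there. Ccne2, a cyclin E that drives entry into S phase, fell by 1.95 ± 0.19, to a dim mean of 4.74, and Rb1 by 1.04 ± 0.09, while Dbf4 rose by 0.72 ± 0.18 and Ccna2 by 0.70 ± 0.14. Against preadipocytes 12 were lower, with Ccna2 at -2.27 ± 0.14 and Dbf4 at -2.26 ± 0.18, and 2 higher, Rb1 at 1.57 ± 0.09 and Rbl2 at 0.57 ± 0.09.

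Of 16 replisome partners and small subunits, 10 fell and 2 rose in differentiation. Dscc1, a subunit of an alternative clamp loader with dim means of 4.02 with control siRNA and 4.72 with PPAR gamma siRNA, fell by 3.44 ± 0.18 and Top2a, topoisomerase II alpha, by 2.35 ± 0.22, while the small polymerase subunits Pole4 and Pold4 rose by 0.73 ± 0.08 and 0.63 ± 0.14. With PPAR gamma siRNA 6 rose and 1 fell, beside 19.9% and 16.1% of all genes. Dscc1 (0.70 ± 0.18) and Chtf18 (0.57 ± 0.18) rose most, and Pole4 fell (-0.52 ± 0.08). Dscc1 and Chtf18, 2 subunits of that loader, were both dim with control siRNA (4.58 for Chtf18). The Dscc1 rise was lost without the 2 arrays of widest Actb difference. The Chtf18 rise was lost without preadipocyte array 2 or any 1 adipocyte array other than control siRNA array 3. Against preadipocytes 7 were lower and 1 higher, with Dscc1 at -2.74 ± 0.18, Top2a at -1.94 ± 0.22 and Pold4 at 0.57 ± 0.14.

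Of 7 genes of histone supply and DNA methylation upkeep, 5 fell and 2 rose. Uhrf1, which guides the maintenance methyltransferase, fell by 2.93 ± 0.25 and Dnmt1, that enzyme, by 2.43 ± 0.20, while the histone chaperones Asf1a and Asf1b rose by 0.39 ± 0.10 and 0.37 ± 0.12. The Asf1b rise was lost without preadipocyte array 2 or 3 or control siRNA array 1 or 3, and the Asf1a rise when its probe sets were averaged. With PPAR gamma siRNA Dnmt1 rose by 0.85 ± 0.20 and Asf1b fell by 0.95 ± 0.12. Against preadipocytes 6 of 7 were lower, with Uhrf1 at -2.51 ± 0.25 and Dnmt1 at -1.57 ± 0.20, and none was higher.

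Of 21 other genes of nucleotide synthesis and salvage, 8 rose and 4 fell in differentiation, and the list's median change was -0.0025. These counts lie near the 27.1% and 24.7% of all genes, so nothing is read from the list there. Impdh1, an enzyme of guanine nucleotide synthesis, rose by 2.00 ± 0.13 and Samhd1, which breaks down deoxynucleotides, by 1.24 ± 0.12, while Dctd, which makes the precursor of thymidylate, fell by 2.36 ± 0.11 and Ctps, listed for CTP synthesis, by 0.99 ± 0.09. With PPAR gamma siRNA 8 fell and 3 rose, beside 16.1% and 19.9% of all genes. Impdh1 changed by -1.76 ± 0.13, Dhodh of pyrimidine synthesis by -0.86 ± 0.08, Paics of purine synthesis by 0.49 ± 0.09 and Dctd by 0.47 ± 0.11. Against preadipocytes 6 were lower and 2 higher, beside 16.9% and 19.6% of all genes. There Dctd stood at -1.89 ± 0.11, Dck, which salvages deoxycytidine, at -0.97 ± 0.22, Samhd1 at 0.87 ± 0.12 and Shmt1, which supplies one-carbon units, at 0.81 ± 0.11. The mean of all Shmt1 probe sets was lower instead, by 0.49 ± 0.07, and that of Samhd1 was not called.

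Of 22 mitosis genes, all fell in differentiation, by a median of 2.07, and all were lower in PPAR gamma siRNA adipocytes than in preadipocytes, by a median of 1.57. The spindle checkpoint kinase Bub1 and survivin (Birc5) changed by -3.70 ± 0.30 and -3.18 ± 0.31 in the first and -2.79 ± 0.30 and -2.37 ± 0.31 in the second, with Bub1 in the dim range at 4.24 with control siRNA. Exact sizes of change that rest on a dim group are uncertain. Between the siRNAs 9 rose and none fell, beside 19.9% and 16.1% of all genes. The rises were led by the spindle factor Tpx2 (1.12 ± 0.24) and cyclin B2, Ccnb2 (1.01 ± 0.20), and the list's median was 0.41.

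**Figure D4:**
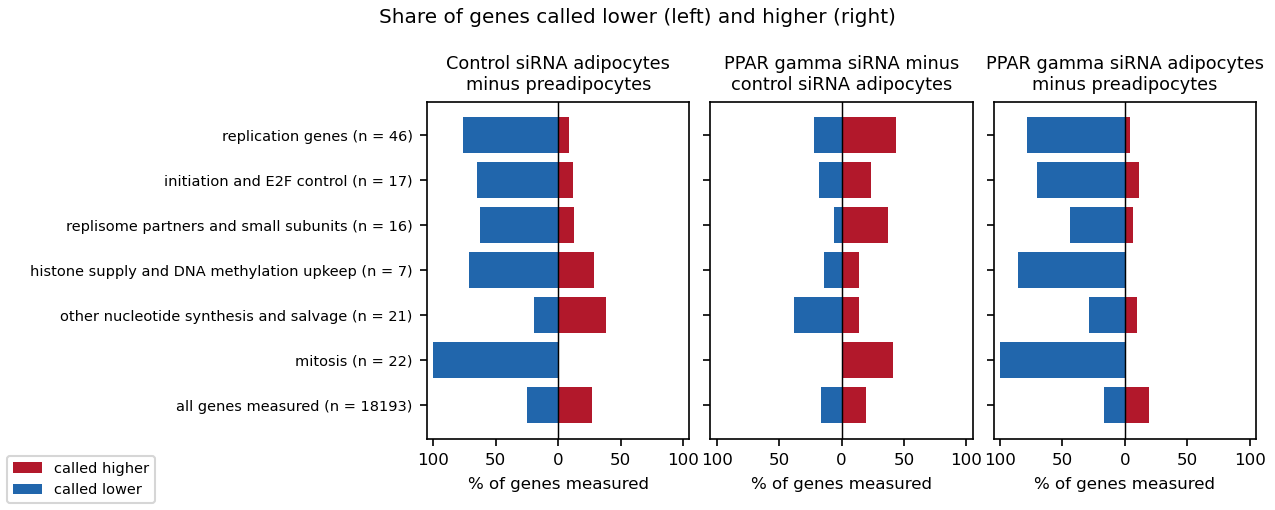
Share of measured genes called lower (blue, to the left of 0) and called higher (red, to the right) in % for the 46 replication genes, 5 further lists and all 18193 genes, with 1 panel per comparison. Mitosis genes fill the whole blue bar in the outer panels. Other nucleotide genes have a larger red than blue bar in the first panel, as do all genes.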

How the data were processed

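Total RNA of 9 samples was hybridised to 1 single-colour oligonucleotide array each, 3 arrays per group. The deposited values are probe set summaries on a log2 scale, read as such from their range of 2.41 to 14.59, since no source used here states it. Per the submitters' processing notes, MAS5, RMA and the affy package 1.16.0 were used, without a role or an order. The sources used here do not state how background was corrected. No further scaling was applied, as array medians ran from 4.82 to 4.89. The number of arrays limits the precision.

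Groups were taken from the sample labels. After 64 control probe sets were left out, 45037 were fitted in 1 linear model of all 9 arrays with limma 3.58.1 in R 4.3.3. Tests were two-sided, with Benjamini-Hochberg adjustment over the 45037 probe sets, and a call needed an adjusted p under 0.05. Probe sets with 1 gene symbol numbered 34945 and gave 18193 genes. The fit was tested on simulated data. The members and the lists were chosen with earlier results of these data known. Values in every array are given for the gene of widest differentiation change in each role, for the MCM2-7 and nucleotide supply genes, and for genes called against the direction of most. From each further list up to 2 called genes per direction and comparison are named. Other settings, tried 1 at a time, were a second quantile normalisation, median centring, a filter on dim probe sets (means under 5 in all 3 groups), separate fits of each pair of groups, a robust prior with an intensity trend, averaging the probe sets of each gene, dropping x and s probe sets, the replicate number as a block, the Actb difference as covariate, dropping the 2 arrays where it was widest, a 2-fold minimum, and dropping each array in turn.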

Additional observations from a re-analysis of the deposited data

How the results depend on the processing

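The counts of called genes and the median changes kept their direction under all alternatives run. Leaving out each array in turn, 35 genes fell and 3 to 4 rose in differentiation, with medians of -1.14 to -0.999. With PPAR gamma siRNA 16 to 21 rose and 8 to 11 fell, with medians of 0.23 to 0.38. Against preadipocytes 32 to 36 were lower and 1 to 3 higher, with medians of -0.83 to -0.68. That last number higher was 4 after renewed quantile normalisation, 1 when a gene's probe sets were averaged, 1 with the Actb covariate and 1 without the 2 arrays of widest Actb difference, which also left 6 genes falling between the siRNAs. Medians were -0.92 in differentiation and -0.56 against preadipocytes with the mean over a gene's probe sets. With a 2-fold minimum, 0 genes rose in differentiation, 2 rose and 0 fell with PPAR gamma siRNA, and 14 were lower and 0 higher against preadipocytes, since many called changes are smaller than that.

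Of 39, 30 and 38 members called in the 3 comparisons, 34, 20 and 30 were called in each of 19 other settings. Counts out of 19 settings, here and above, leave out the 2-fold minimum. Averaging a gene's probe sets turned the changes in differentiation for Orc1 (-0.45), Mcm10 (0.041), Ticrr (0.017), Shmt1 (-0.26) and Gmps (-0.44), between the siRNAs for Shmt1 (-0.24), and against preadipocytes for Orc1 (-0.35), Orc3 (-0.16) and Shmt1 (-0.49). Without x and s probe sets Nasp turned to 0.010 in differentiation and 0.073 against preadipocytes, and with the Actb covariate Rbl1 turned to -0.017 in differentiation. The cause was not tested.

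Replicate numbers did not pair the arrays, since deviations of same-numbered arrays correlated from -0.19 to 0.17 and those of differently numbered arrays from -0.22 to 0.29. The highest value joined control siRNA array 1 and PPAR gamma siRNA array 3, the 2 arrays of widest Actb difference. The replicate block does not pair them. With the replicate block 35 genes fell and 4 rose in differentiation, 19 rose and 11 fell with PPAR gamma siRNA, and 36 were lower and 2 higher against preadipocytes. Scaling moved the median of all genes by less than 0.1. Tyms was dim in all groups, and Cdc6 and Pole2 in part.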
